A study of Mus musculus with 10 samples.

Results

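The cytochrome P450 (Cyp), UDP-glucuronosyltransferase (Ugt), glutathione S-transferase (Gst) and sulfotransferase (Sult) genes were examined in 10 colon tumors of mice by RNA sequencing. Members were chosen by gene name alone, as the names that begin with Cyp, Ugt, Gst or Sult followed by the family number and letter, which gave 76 of the 16875 names of the expression table (41 Cyp, 11 Ugt, 19 Gst and 5 Sult). Several names carried the same 10 values, and such a value does not say which of the genes was read. Besides the 9 Ugt1a names, the sets were Cyp4f16, Cyp4f37 and Cyp4f40; Cyp2c40, Cyp2c67 and Cyp2c68; Cyp2d9 and Cyp2d12; Cyp2j6 and Cyp2j11; and Cyp4b1 with its pseudogene Cyp4b1-ps1, and each is called here by its first name. Cyp2d9, Cyp2d10, Cyp4v3, Cyp11a1 and Gstt3 also shared their values with names outside the families. Counted once, the members came to 61 entries, 34 Cyp, 3 Ugt, 19 Gst and 5 Sult, of which 60 were tested. Cyp2a5 had a mean below the limit of 0.5 FPKM and was not tested.

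These enzymes remove foreign compounds and remodel the body's own steroids, bile acids and lipids. P450s insert oxygen into a substrate and draw their electrons from partner proteins. Ugts, Gsts and Sults then attach glucuronic acid, glutathione or sulfate, which makes the product more soluble and ready for export. In the intestine the conjugating enzymes act mainly in the epithelium, and receptors such as Ahr, Nr1i2, Nr1i3 and Nr1h4 and the oxidant-sensing factor Nfe2l2 are known to control many of these genes. Several of the families are also known for sex-biased expression in mouse liver.

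All mice carried 2 floxed alleles of Wls, the gene of the transmembrane protein that Wnt ligands need for secretion, on a C57BL/6 background, and were 6 to 10 weeks old when the experiment began. Tumors were induced in both groups with the carcinogen azoxymethane followed by 3 cycles of 2% dextran sulfate sodium in the drinking water (AOM/DSS). The 5 control tumors had no Cre (Wls flox/flox). The 5 Villin-WlscKO tumors (Villin-Cre ERT2, Wls flox/flox) lost Wls after 5 injections of tamoxifen at 80 mg/kg, begun 30 days before collection. Villin-Cre ERT2 is active in intestinal epithelium, so stromal cells of the tumor keep Wls. By the legends of the study, control mice had no tamoxifen unless stated. The number of mice behind the tumors is not given in the sources used here, so n is a number of tumors, and p-values measure the spread between these tumors.

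Wls spanned 61.3 to 79.9 FPKM in control tumors and 2.03 to 11.8 FPKM in Villin-WlscKO tumors. FPKM, the unit the authors deposited, counts sequenced fragments relative to transcript length and library size. Eif2s3y, carried on the Y chromosome, spanned 30.4 to 46.6 FPKM in the controls, whereas no Villin-WlscKO tumor exceeded 0.138 FPKM. Genotype, tamoxifen and sex therefore cannot be told apart in these tumors. All 8 pan-epithelial markers, Cdx2 and Vil1 among them, were detected in every tumor, and their summed FPKM was between 5979.7 and 8419.6 in control and between 7223 and 9234 in Villin-WlscKO tumors. Krt19, the highest of them in every tumor, shared its values with Krt13 and Krt17. It spanned 2317 to 3649 FPKM in control and 2400 to 4525 FPKM in Villin-WlscKO tumors, with the maximum in tumor 3. In a whole tumor, fewer cells of a type and less RNA per cell cannot be told apart. Of the marker lists, 4 of 10 goblet cell, 4 of 6 T cell, 1 of 5 B and plasma cell and 2 of 12 colonocyte genes were higher in Villin-WlscKO tumors at an adjusted p under 0.05 in limma, where 6.12% of all names were higher, and 0 in these 4 lists were lower. Villin-WlscKO tumors 2 and 3 stood apart through most markers of stratified squamous epithelium: Krt5 was at 469.5 and 669 FPKM in them and at most 0.315 FPKM in the other 8 tumors. Krt14, Krt6a (shared with Krt4), Trp63, Dsg3, Dsc3 and Sprr2d were also higher in both than in any other tumor. Lor and Krt15 were not. Lor was at 1.04 and 0.933 FPKM in these 2 tumors and at 0.519 to 2.36 FPKM in control tumors. Krt15 was at 34.4 and 67.7 FPKM in them and at 34.6 FPKM in control tumor 1. Differences of named members that are highest or lowest in these 2 tumors are given with and without them. The read depth is unknown, since the table holds no counts.

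In the comparison of the genotypes, 6 of the 60 entries (10%) passed an adjusted p under 0.05 in limma, and 10.9% of all 16757 names tested did. The 3 that were lower in Villin-WlscKO tumors were Gstm7, Cyp2b10 and Cyp27a1, and 4.75% of all names were lower. The 3 that were higher were the shared Ugt1a entry, Gstm3 and Gstp1, and 6.12% of all names were higher. The members' shares lay near those of all names. The 2 groups did not overlap for 6 entries (10%), against 10.1% of all names: Gstm7, Cyp2b10, Cyp27a1 and Gstz1 below the controls, and Gstm3 and Cyp2d37-ps above. At an unadjusted p under 0.05 in limma there were 20 entries (33.3%), against 25.7% of all names. By family, 2 of 33 Cyp entries, 3 of 19 Gst entries, 1 of 3 Ugt entries and 0 of 5 Sult entries passed the adjusted threshold. The median log2 difference, Villin-WlscKO minus control, was -0.0073 for Cyp, 0.41 for Gst, 1.11 for Ugt and 0.28 for Sult, and 0.0073 for all names tested. Without Villin-WlscKO tumors 2 and 3, 7 of 58 entries (12.1%) passed in limma, and 6.63% of the 16599 names tested did. Gstm7 and Cyp2b10 were lower and Gstm3, Gstp1, Gsta3, Gstk1 and the Cyp4f16 entry higher, while Cyp27a1 and the Ugt1a entry no longer passed.

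**Figure D1:**
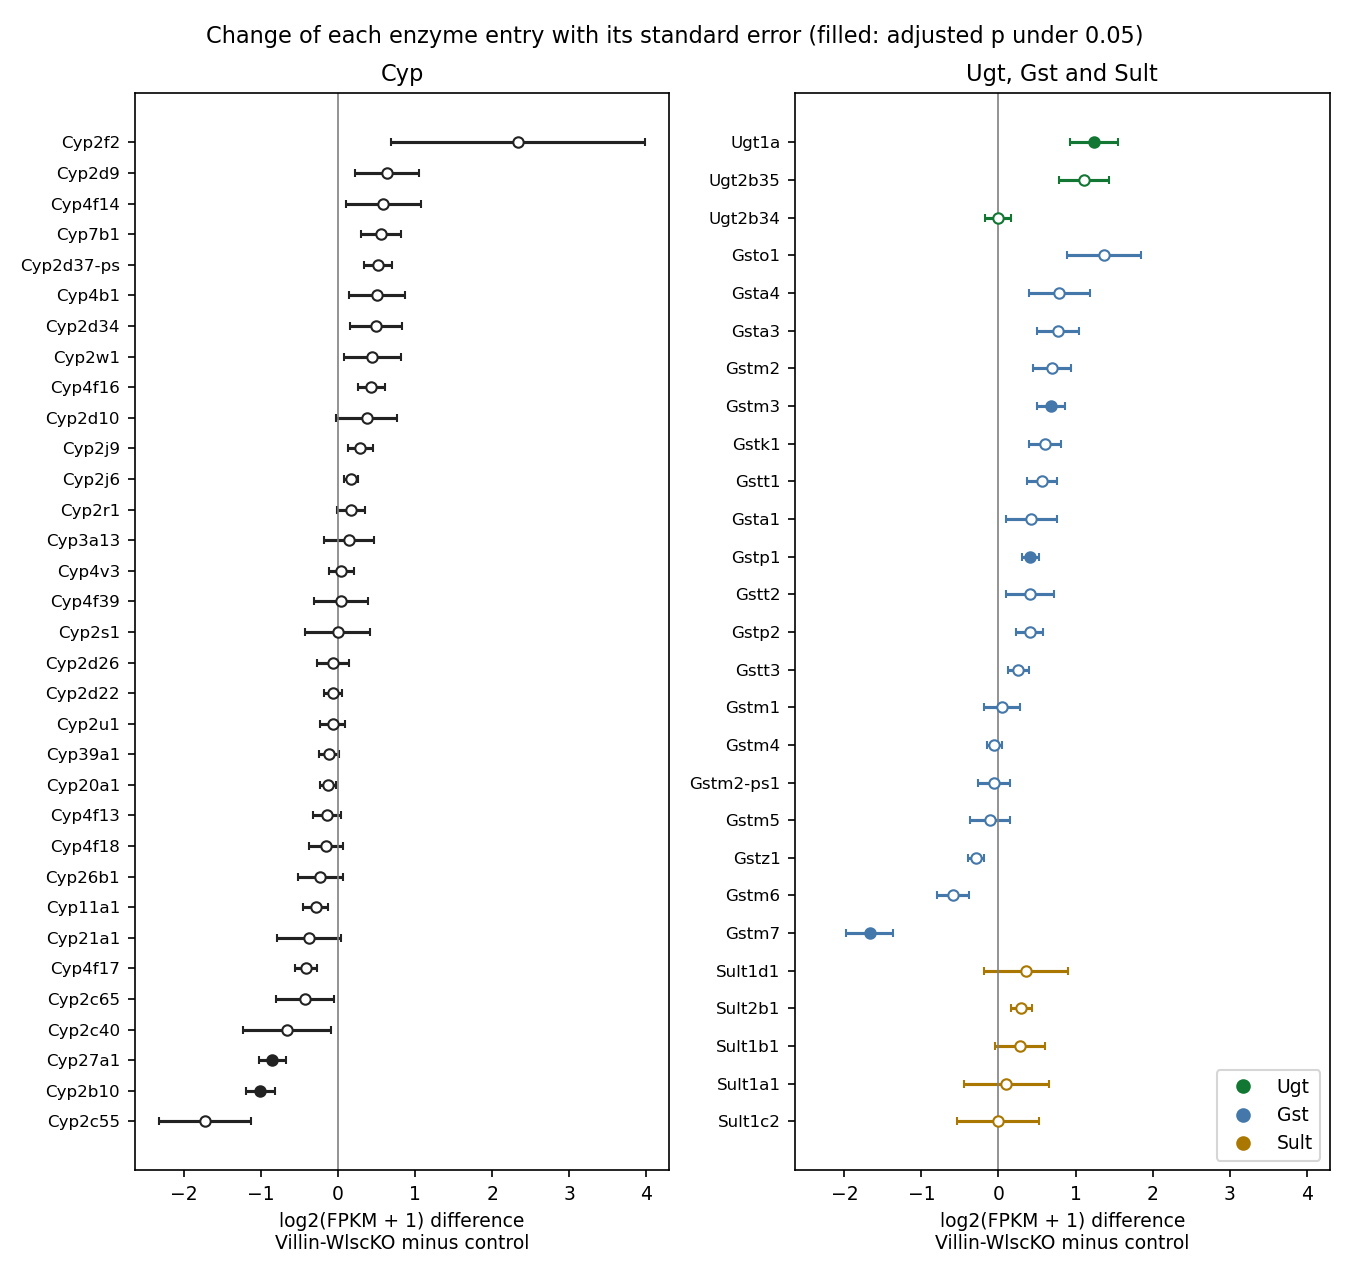
Log2(FPKM + 1) of Villin-WlscKO minus that of control tumors, as group means, for each of the 60 tested entries, with the standard error from limma as a horizontal bar, in 5 tumors per group. Filled points passed an adjusted p under 0.05; the 33 Cyp entries (left) spread on both sides of 0, whereas 13 of the 19 Gst entries (right) lay above it.

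The starts of 3 of the genes that passed are shown because 2 of them lie close together in one gene cluster and moved in opposite directions, and the third, Cyp2b10, is the textbook target of the xenobiotic receptor Nr1i3. The sequences are RefSeq promoters on GRCm38.p6, 250 bases before to 50 bases after the start, written 5′ to 3′ on the gene's strand. Capitals mark matches on either strand to the antioxidant response element TGACNNNGC, the xenobiotic response element core GCGTG or the TCF/LEF motif CTTTGA. No motif of Nr1i3 was searched, and Nr1i3 itself was not analysed here. The Gstm7 window is chr3:107931565-107931864 on the minus strand and is the second of 2 starts in the table. The Gstm3 window is chr3:107969125-107969424 on the minus strand. The Cyp2b10 window is chr7:25897408-25897707 on the plus strand.
Gstm7: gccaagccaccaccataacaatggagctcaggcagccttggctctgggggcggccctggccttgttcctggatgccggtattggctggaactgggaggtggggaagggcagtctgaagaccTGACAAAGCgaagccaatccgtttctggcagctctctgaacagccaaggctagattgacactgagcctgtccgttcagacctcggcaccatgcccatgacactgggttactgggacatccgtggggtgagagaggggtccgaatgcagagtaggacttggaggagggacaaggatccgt
Gstm3: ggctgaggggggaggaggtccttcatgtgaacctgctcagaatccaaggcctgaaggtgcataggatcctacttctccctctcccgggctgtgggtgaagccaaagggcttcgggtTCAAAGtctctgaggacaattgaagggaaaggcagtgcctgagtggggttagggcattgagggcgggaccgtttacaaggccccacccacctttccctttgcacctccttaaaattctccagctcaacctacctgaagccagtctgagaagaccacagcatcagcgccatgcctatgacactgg
Cyp2b10: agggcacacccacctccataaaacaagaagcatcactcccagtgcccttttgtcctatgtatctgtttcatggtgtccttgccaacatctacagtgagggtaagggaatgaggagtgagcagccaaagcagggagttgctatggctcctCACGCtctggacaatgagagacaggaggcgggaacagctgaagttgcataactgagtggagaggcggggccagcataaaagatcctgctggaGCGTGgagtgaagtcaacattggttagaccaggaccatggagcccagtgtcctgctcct
The Gstm7 window shown held 1 match to the antioxidant element, which 12.4% of 32851 promoter windows of the same length hold. The window of its other start, chr3:107931768-107932067, which lies at the gene end given by GENCODE, held no match to any of the 3 motifs. The Gstm3 window held 1 match to the TCF/LEF motif, which 16.0% hold. The Cyp2b10 window held 2 matches to the xenobiotic element core, 1 on each strand, and 32.4% of windows hold at least 1. The Gstp1 window also held 1 match to this core, whereas none of the 3 motifs occurred in the windows of Cyp27a1, Cyp2f2 and Gsto1. A match is a run of letters and not a measured binding site.

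Gstm7, a mu class glutathione S-transferase on chromosome 3 (107926334 to 107931817, minus strand; GENCODE M21 on GRCm38), was the member with the smallest adjusted p. Its level was 107, 53.6, 64.4, 121 and 40.2 FPKM in control tumors 1 to 5 and 27.9, 14.5, 22.7, 18.4 and 28.0 FPKM in Villin-WlscKO tumors 1 to 5. Every Villin-WlscKO tumor lay below every control tumor. The means were 77.3 ± 35.0 FPKM (SD, n = 5) in control and 22.3 ± 5.91 FPKM (SD, n = 5) in knockout tumors. The log2(FPKM + 1) difference was -1.67 (standard error 0.30, adjusted p = 0.0066 in limma; exact permutation p = 0.00794, two-sided and the smallest that 5 against 5 tumors can give). Across 22 alternative settings the difference stayed between -1.87 and -1.48, and Gstm7 passed in each.

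**Figure D2:**
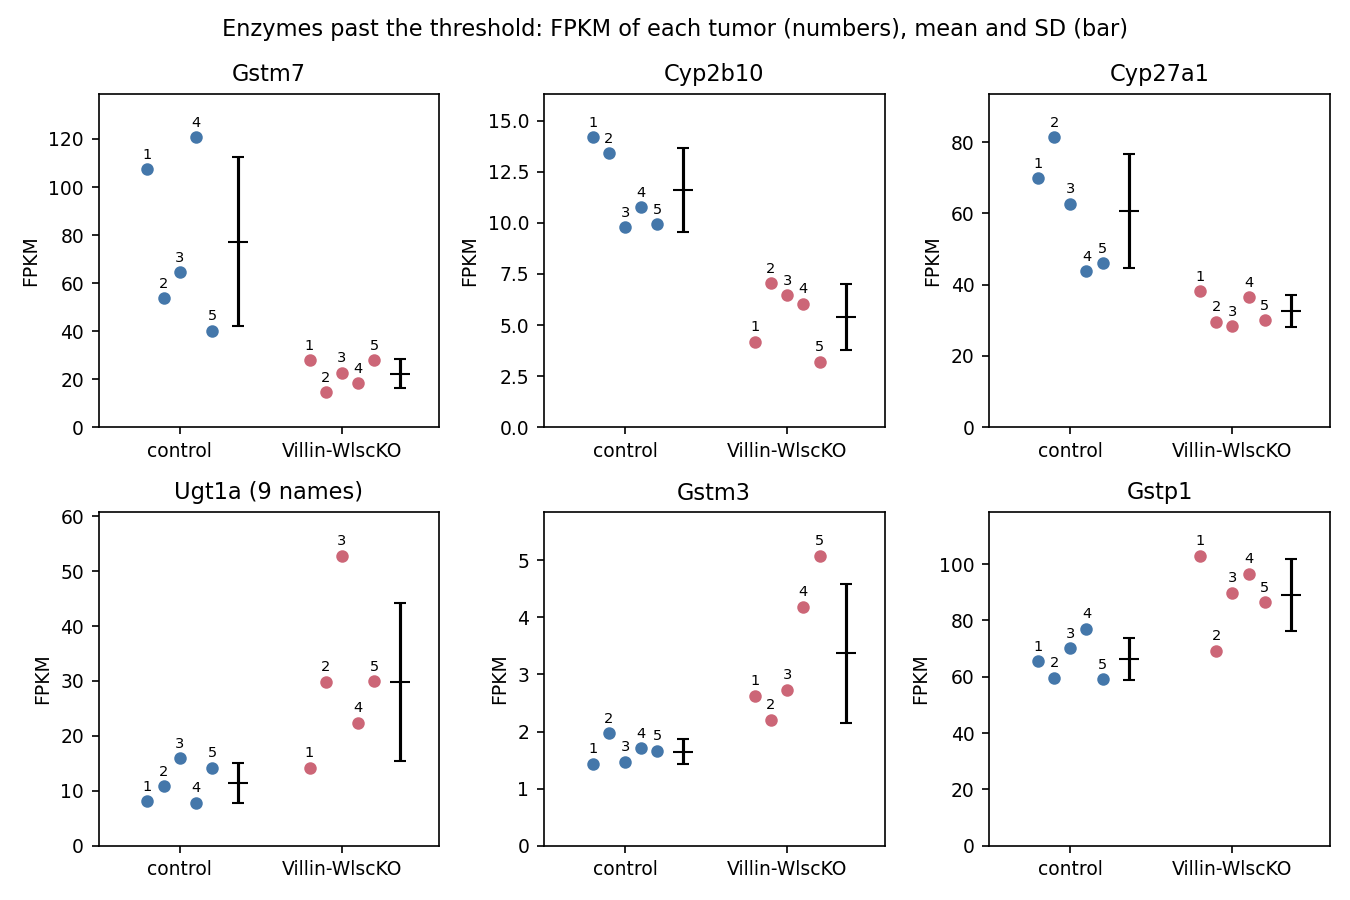
FPKM of each tumor for the 6 entries past the threshold, with tumor numbers above the points and the mean and SD of the 5 tumors of a group as a black bar. The groups are fully apart for Gstm7, Cyp2b10, Cyp27a1 and Gstm3, and overlap for Ugt1a and Gstp1.

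Cyp2b10, a P450 that oxidizes many drugs and that Nr1i3 is known to induce, lies on chromosome 7 (25897620 to 25926624, plus strand). It was at 14.2, 13.4, 9.79, 10.8 and 9.94 FPKM in control tumors 1 to 5 and at 4.19, 7.05, 6.46, 6.04 and 3.20 FPKM in Villin-WlscKO tumors 1 to 5. All Villin-WlscKO values were below the lowest control value, and tumors 1 and 5 were the lowest of all. The means were 11.6 ± 2.05 FPKM (SD, n = 5) and 5.39 ± 1.62 FPKM (SD, n = 5). The difference was -1.01 on the log2 scale (standard error 0.19, adjusted p = 0.0078 in limma), and the entry passed in all 22 alternatives.

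Cyp27a1, the mitochondrial sterol 27-hydroxylase of bile acid synthesis, lies on chromosome 1 (74713574 to 74737892, plus strand) and was the highest Cyp entry in control tumors. It was at 69.8, 81.4, 62.7, 43.8 and 46.0 FPKM in control tumors 1 to 5 and at 38.2, 29.6, 28.4, 36.5 and 29.9 FPKM in Villin-WlscKO tumors 1 to 5. The groups did not overlap, and the 2 lowest values were those of tumors 2 and 3. The means of 60.8 ± 16.0 FPKM (SD, n = 5) and 32.5 ± 4.48 FPKM (SD, n = 5) gave a log2 difference of -0.85 (standard error 0.17, adjusted p = 0.0113 in limma). Without Villin-WlscKO tumors 2 and 3 the difference was -0.75 and the adjusted p was 0.0719 in limma, the only one of 22 alternatives in which it did not pass. The gene ends 34 kb before Wnt6, whose log2 difference was -1.41 with no overlap between the groups. A link between these differences was not tested.

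The other P450s of sterols and bile acids showed other values. Cyp7b1, the oxysterol 7-alpha-hydroxylase, reached 2.63 and 2.18 FPKM in tumors 2 and 3 of the Villin-WlscKO group and at most 1.06 FPKM in the other 8 tumors. Its log2 difference was 0.55 (adjusted p = 0.215 in limma), and 0.15 without tumors 2 and 3. Cyp39a1, a 24-hydroxycholesterol hydroxylase, spanned 6.67 to 9.90 FPKM in control and 5.61 to 8.80 FPKM in Villin-WlscKO tumors. Cyp51, the lanosterol demethylase of cholesterol synthesis, is not a member by the naming rule and had a log2 difference of 0.12 (adjusted p = 0.719 in limma). Cyp7a1 and Cyp8b1 were not analysed here.

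Of the P450s listed for steroid hormones, vitamin D and retinoic acid, 2 of 6, 1 of 3 and 1 of 3 were tested, and none of these 4 passed the adjusted threshold or an unadjusted p of 0.05 in limma. Cyp11a1, the side-chain cleavage enzyme that starts steroid synthesis, was at 4.26 ± 1.12 FPKM (SD, n = 5) in control and 3.26 ± 0.671 FPKM (SD, n = 5) in Villin-WlscKO tumors, and its values were shared with Gm17322. Cyp21a1, the steroid 21-hydroxylase, spread from 2.94 to 20.3 FPKM among control tumors and from 3.15 to 10.3 FPKM among Villin-WlscKO tumors, with the highest value in control tumor 1. The control spread was wider than the difference between the group means of 8.42 and 5.52 FPKM. Cyp2r1, a vitamin D 25-hydroxylase, stayed at or below 2.06 FPKM in every tumor. Cyp26b1, which degrades retinoic acid, stayed at or below 2.21 FPKM in every tumor. Cyp2s1, an Ahr-linked P450, was at 8.10 ± 3.26 FPKM (SD, n = 5) in control and 8.68 ± 5.63 FPKM (SD, n = 5) in Villin-WlscKO tumors, with a log2 difference of -0.01 (standard error 0.42). The sign of that difference depended on the setting. Cyp1a1 and Cyp1b1 were not analysed here.

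Cyp2f2, a P450 best known from the secretory cells of the airway and from naphthalene oxidation, was divided by tumor and not by group. It was at 0.440, 2.49, 4.21, 0.182 and 3.91 FPKM in control tumors 1 to 5 and at 0.563, 297.8, 306, 0.380 and 1.52 FPKM in Villin-WlscKO tumors 1 to 5. Only tumors 2 and 3 of the 10 exceeded 4.21 FPKM, and Cyp2f2 made up 61.2% and 52.6% of all Cyp FPKM in them, counting each entry once, against at most 1.54% elsewhere. The log2 difference was 2.34 (standard error 1.65, adjusted p = 0.418 in limma), and -0.64 without these 2 tumors. The squamous markers Krt5 and Trp63 were high in the same 2 tumors, with Trp63 at 16.3 and 17.0 FPKM against at most 0.0649 FPKM in the other 8. Over the 9 squamous markers tested, the summed FPKM was 1048 and 1353 in tumors 2 and 3, between 46.8 and 217 in control tumors and between 15.4 and 57.0 in the remaining Villin-WlscKO tumors. The part of squamous cells in the Cyp2f2 values was not tested.

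**Figure D3:**
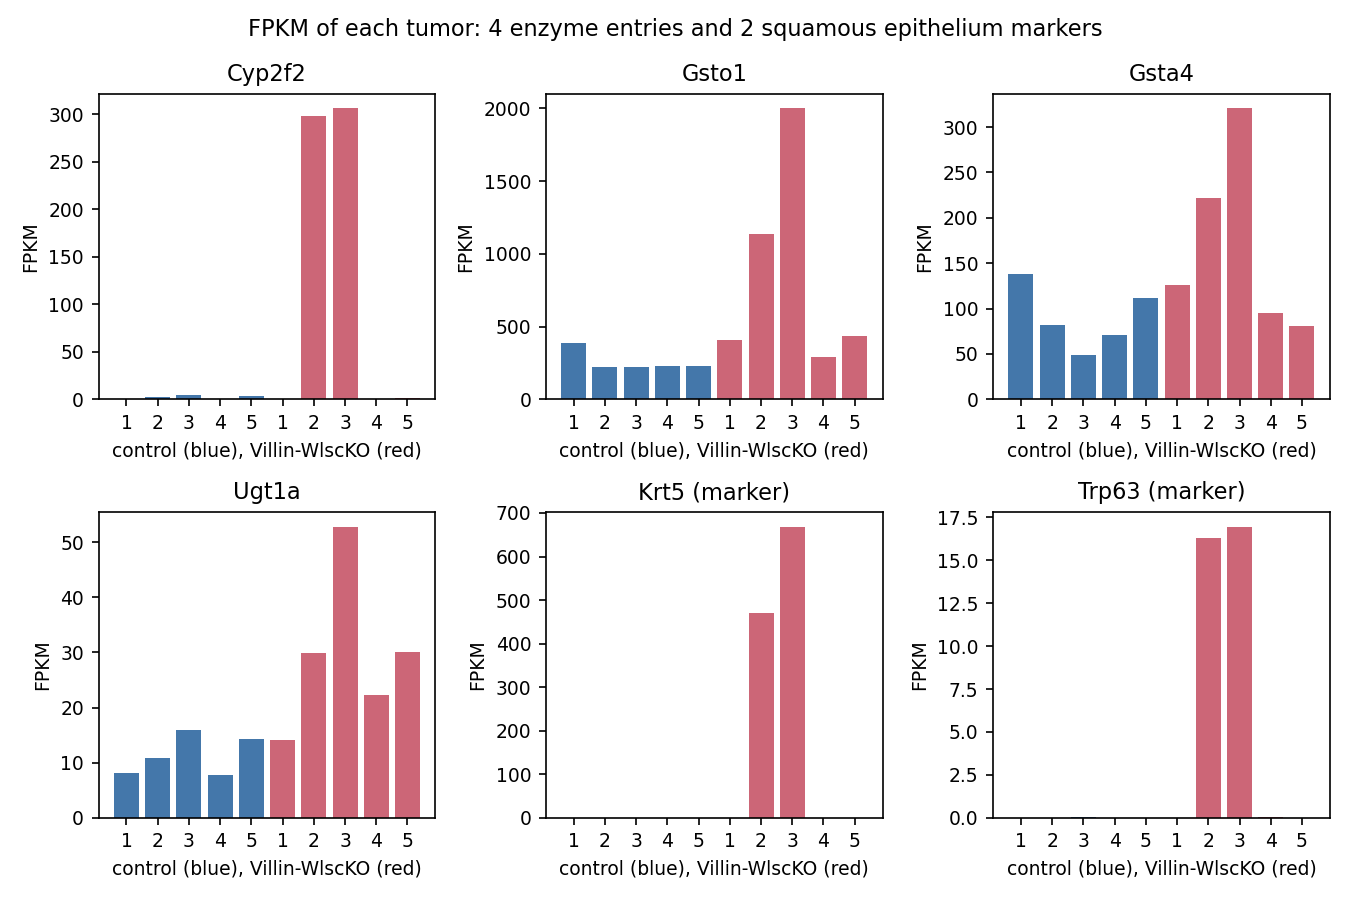
FPKM of each of the 5 control (blue) and 5 Villin-WlscKO (red) tumors for Cyp2f2, Gsto1, Gsta4 and the Ugt1a entry, and for the squamous markers Krt5 and Trp63. Villin-WlscKO tumors 2 and 3 carry nearly all of Cyp2f2, Krt5 and Trp63 and the highest values of Gsto1 and Gsta4, whereas Ugt1a is also above its control mean of 11.4 FPKM in tumors 1, 4 and 5.

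In all, 6 entries were higher in both of tumors 2 and 3 than in any other tumor (10%, against 6.67% of all names), and 4 were lower in both (6.67%, against 4.30% of all names). The 6 were Cyp2f2, Cyp2j9, the Cyp4b1 entry, Cyp7b1, Gsta4 and Gsto1, and the 4 were Cyp2c55, Cyp27a1, Gstm6 and Ugt2b34. Cyp2c55, which makes hydroxylated arachidonic acid products in the colon, had the lowest difference of any member and is named here after its values were seen. It was at 13.2, 7.44, 8.89, 0.744 and 3.25 FPKM in control tumors 1 to 5 and at 1.34, 0.0923, 0.0809, 0.578 and 4.11 FPKM in Villin-WlscKO tumors 1 to 5. Control tumors 4 and 5 lay within the range of the Villin-WlscKO tumors. The log2 difference was -1.73 (standard error 0.60, adjusted p = 0.0969 in limma), and -1.21 without Villin-WlscKO tumors 2 and 3.

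The 6 Cyp2d entries, enzymes of drug hydroxylation that lie together on chromosome 15, had differences between -0.07 and 0.63, and none passed in limma. Cyp2d34, the highest of them, was at 30.1, 32.1, 28.1, 15.1 and 33.0 FPKM in control tumors 1 to 5 and at 41.3, 17.0, 49.6, 33.4 and 67.2 FPKM in Villin-WlscKO tumors 1 to 5. Its lowest values were those of control tumor 4 and Villin-WlscKO tumor 2, its highest that of Villin-WlscKO tumor 5, and the difference was 0.49 (standard error 0.34, adjusted p = 0.399 in limma). The pseudogene Cyp2d37-ps spanned 0.275 to 1.13 FPKM in control and 1.13 to 1.99 FPKM in Villin-WlscKO tumors, without overlap. Its log2 difference of 0.52 (standard error 0.18) did not pass (adjusted p = 0.0944 in limma). The 3 Cyp2c entries all lay below 0 and the 6 Cyp4f entries, fatty acid omega-hydroxylases, had 3 on each side of 0. Of these, the highest was the Cyp4f16 entry, shared by Cyp4f16, Cyp4f37 and Cyp4f40, at 22.4 ± 2.93 FPKM (SD, n = 5) in control and 31.3 ± 7.99 FPKM (SD, n = 5) in Villin-WlscKO tumors.

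Many of these P450s are known from liver, and hepatocyte markers were therefore read beside them. Alb, the defining hepatocyte transcript, was 3.95, 7.66, 76.6, 441 and 126 FPKM in control tumors 1 to 5 and 6.72 to 46.6 FPKM in Villin-WlscKO tumors. The summed FPKM of the 3 hepatocyte markers was between 37.1 and 454 in control and between 36.5 and 85.9 in Villin-WlscKO tumors, and 1 of the 3, Tat, passed as higher in Villin-WlscKO tumors. The markers diverged in control tumor 4. It had the most Alb but the lowest Ttr and Tat of all tumors, at 8.76 and 4.02 FPKM. Its summed Cyp FPKM without Cyp2f2, 203, was the lowest among control tumors, where the other 4 were between 262 and 311. The part of hepatocyte RNA in the other values was not tested.

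The Gst family was the most abundant. Without the Gstt3 entry, whose values are shared with Ddt and Gm20441, its summed FPKM was 849 ± 128 (SD, n = 5) in control and 1526 ± 758 (SD, n = 5) in Villin-WlscKO tumors. Tumors 2 and 3 reached 1709 and 2778, whereas the other 3 Villin-WlscKO tumors lay between 974 and 1128, on both sides of the control maximum of 1014. Gsto1, the omega class enzyme that reduces thiol conjugates, made up 30.2% of the sum on average in control tumors and 66.6% and 72.1% in tumors 2 and 3.

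Gsto1 lies on chromosome 19 (47854970 to 47864790, plus strand), where its span overlaps Cfap43. It was at 388, 221, 219, 229.9 and 230.5 FPKM in control tumors 1 to 5 and at 408, 1138, 2001.5, 288 and 437 FPKM in Villin-WlscKO tumors 1 to 5. Control tumor 1 exceeded Villin-WlscKO tumor 4, so the groups overlapped by that value. The log2 difference was 1.37 (standard error 0.48, adjusted p = 0.0981 in limma; exact permutation p = 0.0159, two-sided). It was 0.57 without tumors 2 and 3 and passed in 1 of 22 alternatives, without Villin-WlscKO tumor 4. Gsta4, an alpha class enzyme that conjugates the lipid peroxidation product 4-hydroxynonenal, reached 221 and 321 FPKM in tumors 2 and 3 of the Villin-WlscKO group. The other 8 tumors spanned 48.7 to 138 FPKM for Gsta4, and the difference was 0.79 (standard error 0.40, adjusted p = 0.244 in limma), or 0.22 without tumors 2 and 3.

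The mu class genes form a cluster on chromosome 3 and did not move together. In chromosome order, Gstm5, Gstm7, Gstm6, Gstm3, Gstm2, Gstm1 and Gstm4 lie within 149 kb, with Gstm5 on the plus strand and the others on the minus strand. Gstm7 and Gstm3 passed in limma in opposite directions, -1.67 and 0.68, and the others were not past the threshold. Gstm6, which lies 7.03 kb from Gstm7, had a difference of -0.59 (standard error 0.20, adjusted p = 0.0968 in limma; -0.38 without tumors 2 and 3) with values of 11.2 to 20.6 FPKM in control and 6.39 to 12.3 FPKM in Villin-WlscKO tumors. Gstm2 had a difference of 0.69 (standard error 0.25, adjusted p = 0.110 in limma). Gstm5, the most abundant of the class, spanned 101 to 235 FPKM in control and 86.1 to 193 FPKM in Villin-WlscKO tumors, with a difference of -0.10 (standard error 0.26). Gstm7 made up 22.2 ± 6.61% (SD, n = 5) of the summed FPKM of the 8 Gstm entries, the pseudogene Gstm2-ps1 on chromosome 5 included, in control and 8.15 ± 1.56% (SD, n = 5) in Villin-WlscKO tumors, and its share in every Villin-WlscKO tumor was below that in every control tumor.

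**Figure D4:**
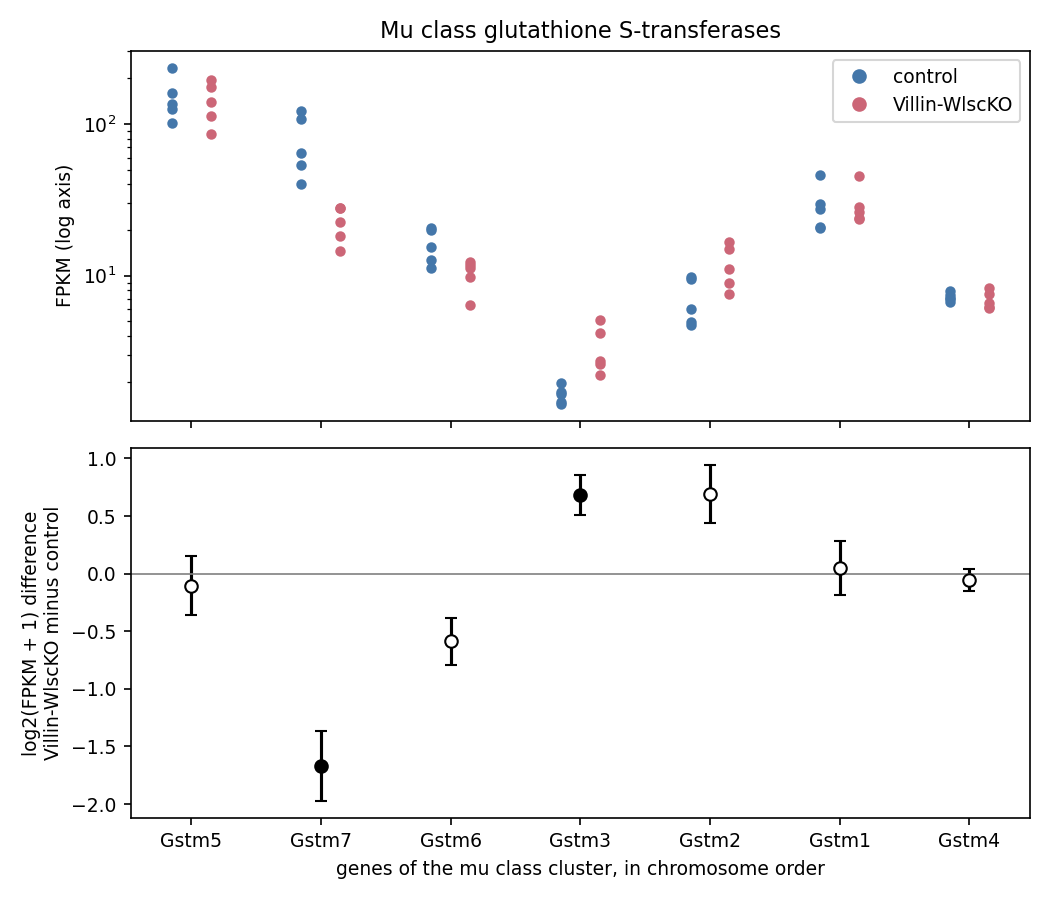
The 7 mu class genes of the chromosome 3 cluster in chromosome order: FPKM of each tumor on a log axis (top; control blue, Villin-WlscKO red) and difference of mean log2(FPKM + 1) with its standard error from limma (bottom; filled where the adjusted p was under 0.05). Gstm7 and Gstm6 lie below 0 and their neighbours Gstm3 and Gstm2 above it, while Gstm5, Gstm1 and Gstm4 lie within 1 standard error of 0.

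Gstm3 was low in all tumors, at 1.43, 1.97, 1.47, 1.71 and 1.67 FPKM in control tumors 1 to 5 and 2.63, 2.21, 2.73, 4.19 and 5.08 FPKM in Villin-WlscKO tumors 1 to 5. No Villin-WlscKO tumor was below a control tumor, and tumors 4 and 5 were the highest. The log2 difference was 0.68 (standard error 0.18, adjusted p = 0.0324 in limma; exact permutation p = 0.00794, two-sided), and it passed in 11 of 21 alternatives. The coding sequences of the mu class resemble each other, with 70.5% to 85.2% of aligned bases identical between Gstm7 and the other 6, so the division of reads between them depends on the authors' quantification.

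Gstp1, the pi class enzyme that clears electrophiles and is abundant in many tumors, lies on chromosome 19 (4035407 to 4037985, minus strand), 2.30 kb from Gstp2. It was at 65.6, 59.6, 70.2, 77.1 and 59.2 FPKM in control tumors 1 to 5 and at 103, 69.2, 89.9, 96.5 and 86.4 FPKM in Villin-WlscKO tumors 1 to 5. Only Villin-WlscKO tumor 2 lay within the control range. The means of 66.3 ± 7.53 FPKM (SD, n = 5) and 89.0 ± 12.8 FPKM (SD, n = 5) differed by 0.41 on the log2 scale (standard error 0.11, adjusted p = 0.0426 in limma; exact permutation p = 0.0238, two-sided). It passed in 12 of 22 alternatives. Gstp2 had nearly the same difference, 0.41 (standard error 0.18), at a lower level and did not pass (adjusted p = 0.178 in limma).

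The remaining Gst classes are described after their values were seen. All 3 alpha, all 3 theta and the single kappa entry had a difference above 0, between 0.26 and 0.79, and none passed in limma with all tumors. Gsta3, an alpha class enzyme that detoxifies aflatoxin epoxide in mice, was at 32.2 ± 3.52 FPKM (SD, n = 5) in control tumors and at 68.1, 29.7, 60.1, 100.2 and 42.8 FPKM in Villin-WlscKO tumors 1 to 5. Gstk1, the mitochondrial and peroxisomal kappa enzyme, was at 16.2 ± 2.43 FPKM (SD, n = 5) in control tumors and at 27.6, 14.1, 23.3, 33.8 and 31.1 FPKM in Villin-WlscKO tumors 1 to 5. For both genes the Villin-WlscKO tumor within the control range was tumor 2. Gstz1, the zeta class enzyme of tyrosine breakdown, spanned 18.9 to 26.6 FPKM in control and 15.2 to 18.6 FPKM in Villin-WlscKO tumors without overlap. Its difference of -0.29 (standard error 0.10) did not pass (adjusted p = 0.0957 in limma), and its span overlaps Pomt2.

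The glucuronosyltransferases gave 3 entries. The Ugt1a entry holds 9 names (Ugt1a1, Ugt1a2, Ugt1a5, Ugt1a6a, Ugt1a6b, Ugt1a7c, Ugt1a8, Ugt1a9 and Ugt1a10), enzymes of bilirubin, phenol and steroid glucuronidation that each join a first exon of their own to common last exons. They span 88055388 to 88220002 of chromosome 1 and share 1311 exonic bases in 4 exon blocks, which is 39.7% to 59.9% of the exonic bases of each gene. One value for all 9 names therefore cannot say which first exon was used. The entry was at 8.10, 10.8, 15.9, 7.83 and 14.2 FPKM in control tumors 1 to 5 and at 14.2, 29.9, 52.8, 22.4 and 30 FPKM in Villin-WlscKO tumors 1 to 5. Villin-WlscKO tumor 1 lay within the control range and the other 4 above it. The means were 11.4 ± 3.62 FPKM (SD, n = 5) and 29.9 ± 14.4 FPKM (SD, n = 5), with a log2 difference of 1.24 (standard error 0.31, adjusted p = 0.0299 in limma; exact permutation p = 0.0238, two-sided). The entry passed in 15 of 22 alternatives and its difference stayed between 0.89 and 1.47. It did not pass without control tumor 1, 2 or 4, without Villin-WlscKO tumor 2, 3 or 5, or without tumors 2 and 3 together, where the adjusted p in limma was at most 0.108.

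Of the Ugt2b enzymes, which glucuronidate steroids and bile acids, Ugt2b34 was the highest Ugt entry, at 64.2 ± 3.69 FPKM (SD, n = 5) in control tumors. Among Villin-WlscKO tumors it split, with 45.1 and 48.0 FPKM in tumors 2 and 3 and 74.0 to 80.8 FPKM in the other 3. The first pair lay below every control tumor and the other 3 above every control tumor, so that the group difference was -0.01 (standard error 0.17), and 0.29 without tumors 2 and 3 (adjusted p = 0.0561 in limma). Ugt2b35 was at 1.79, 3.80, 7.33, 4.35 and 5.09 FPKM in control tumors 1 to 5 and at 9.02, 8.94, 6.57, 20.7 and 9.34 FPKM in Villin-WlscKO tumors 1 to 5. Its log2 difference of 1.11 (standard error 0.32) fell short of the threshold (adjusted p = 0.0544 in limma; exact permutation p = 0.0159, two-sided). Only Villin-WlscKO tumor 3 lay within the control range. The Ugt1a entry made up 14.1 ± 3.60% (SD, n = 5) of the Ugt FPKM in control and 28.5 ± 14.1% (SD, n = 5) in Villin-WlscKO tumors.

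None of the 5 sulfotransferases passed in limma, and 1, Sult2b1, had an unadjusted p under 0.05. Sult1b1, which sulfates thyroid hormone and phenols in the gut, was the highest, 30.6 to 50.5 FPKM in control tumors and 22.4 to 81.9 FPKM in Villin-WlscKO tumors. Its lowest value was again that of Villin-WlscKO tumor 2 and its highest that of tumor 5, with a difference of 0.28 (standard error 0.32). Sult2b1, which sulfates cholesterol and is typical of squamous epithelium, was at 14.2 ± 1.72 FPKM (SD, n = 5) in control and 17.8 ± 3.35 FPKM (SD, n = 5) in Villin-WlscKO tumors. Tumors 1 to 5 of the latter were at 20.8, 21.5, 15.9, 13.5 and 17.5 FPKM, so that tumors 2 and 3 did not stand apart. The difference was 0.30 (standard error 0.13, adjusted p = 0.185 in limma). Sult1d1, a sulfotransferase of catecholamines, ranged from 2.78 to 17.8 FPKM among control tumors and from 4.40 to 23 FPKM among Villin-WlscKO tumors. The spread within each group exceeded the difference of 0.35 (standard error 0.54) between them.

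**Figure D5:**
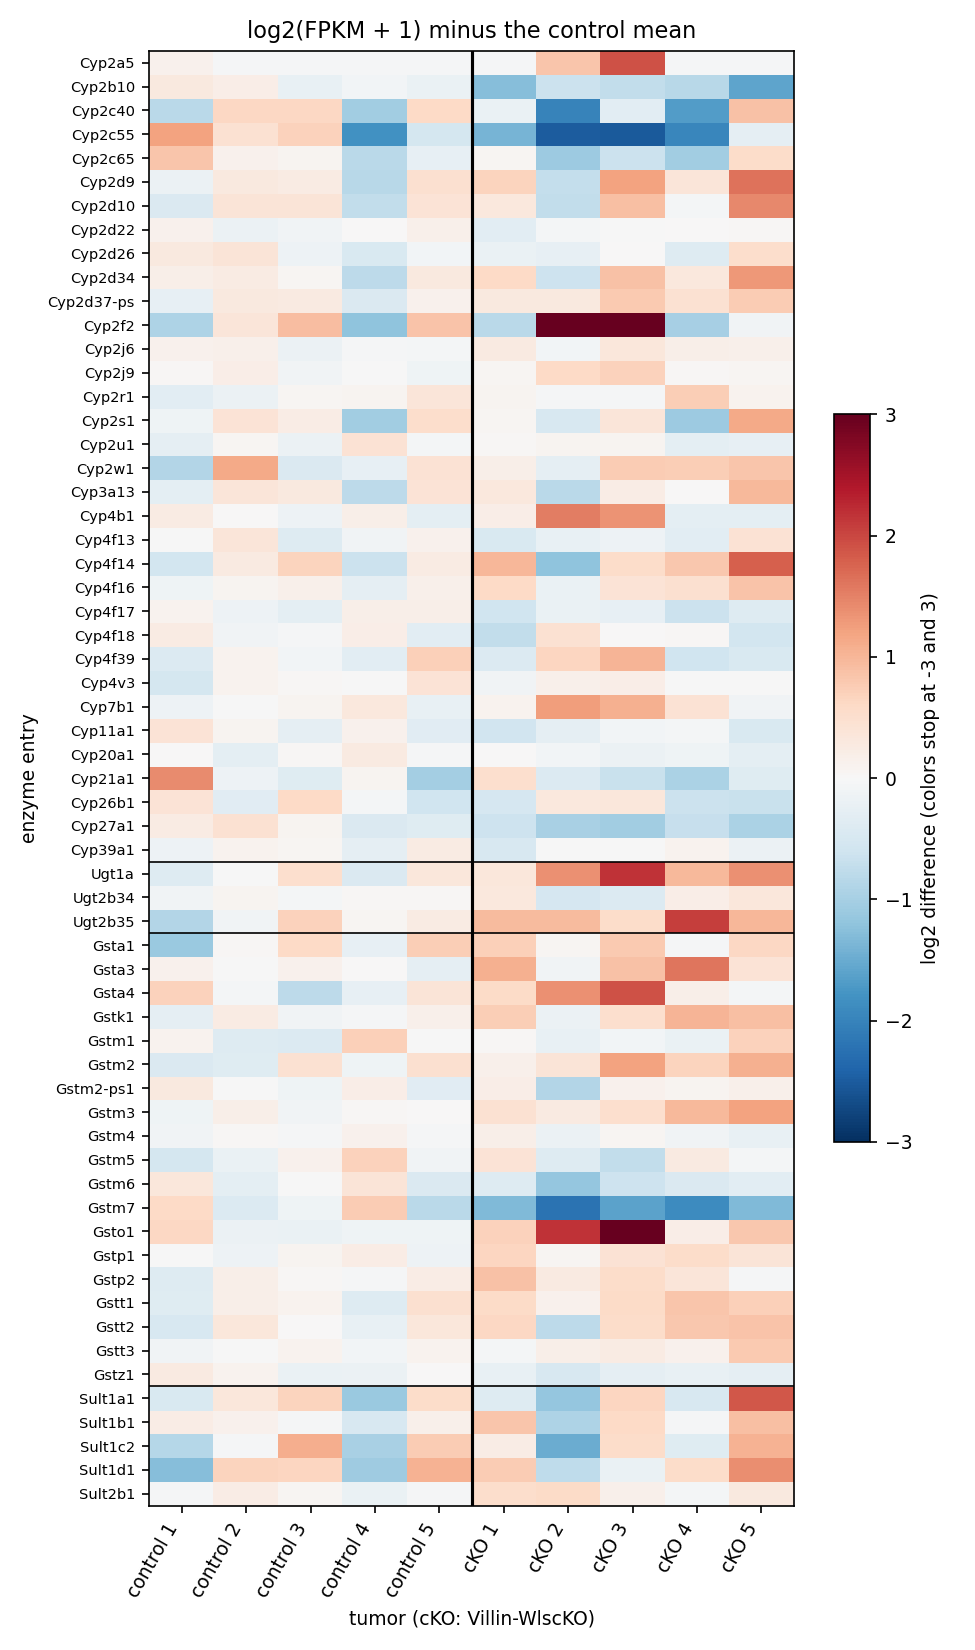
Heatmap of log2(FPKM + 1) minus the control mean for the 61 entries (rows, by family) in 5 control and 5 Villin-WlscKO tumors (columns), with the strongest differences capped at the ends of the color scale. Several Cyp and Sult entries are low together in control tumors 1 and 4 and Villin-WlscKO tumor 2 and high in Villin-WlscKO tumor 5, a pattern that crosses the groups. The Gst entries do not share it as a family, and Gstm1, Gstm5, Gstm6 and Gstm7 are highest in control tumor 4.

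Single tumors set much of the spread. Villin-WlscKO tumor 5 had the highest value in 17 of the 60 tested entries (28.3%), against 12.8% of all names. Villin-WlscKO tumor 2 had the lowest in 13 (21.7%, against 8.93% of all names), control tumor 1 in 11 (18.3%, against 12.5%) and control tumor 4 in 10 (16.7%, against 12.3%). The summed FPKM of the 12 colonocyte markers was 2693 in Villin-WlscKO tumor 5 and 1137 in Villin-WlscKO tumor 2, and it was 871 in control tumor 4 but 1637 in control tumor 1, the highest of the control tumors. The markers diverged in control tumor 1. Car1 and Krt20, at 606 and 250 FPKM, were the highest of the control tumors there, whereas Car4 and Aqp8, at 2.36 and 0.795 FPKM, were the lowest of all tumors. The part of the cell makeup in these orders was not tested.

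Of 110 further genes of the pathway on 5 lists, 16 (14.5%) passed the threshold, against 10.9% of all names. Of these, 11 had higher and 5 lower values in Villin-WlscKO tumors, where 6.12% of all names were higher and 4.75% lower. Their differences are of mean log2(FPKM + 1), as for the members. Among 22 receptors and their partners, Nr1h4 (the bile acid receptor) and Tiparp (an Ahr target that represses it) rose, with differences of 1.06 and 0.44, and the Mafg entry, shared with 3 other names, fell (-0.47). Ahr itself was at 12.9 ± 1.6 FPKM (SD, n = 5) in control and 10.2 ± 2.08 FPKM (SD, n = 5) in Villin-WlscKO tumors and did not pass (adjusted p = 0.178 in limma). Nr1i2, the pregnane X receptor, had a difference of 0.19 (adjusted p = 0.667 in limma) and Nfe2l2 one of -0.18 (adjusted p = 0.110 in limma).

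Among 21 electron donors and suppliers of cofactors, 3 rose and 1 fell. Gclc, the catalytic subunit of the first enzyme of glutathione synthesis, was at 18.8 ± 2.12 FPKM (SD, n = 5) in control tumors and rose to 31.0 ± 4.47 FPKM (SD, n = 5), a difference of 0.69 (adjusted p = 0.0031 in limma). Gsr, which regenerates glutathione, and G6pdx, which supplies NADPH, both rose by 0.35. None of these 3 overlapped between the groups. Cyb5b, the cytochrome b5 of the outer mitochondrial membrane, fell (-0.60, adjusted p = 0.0034 in limma), and Por, the reductase that feeds microsomal P450s, had a difference of -0.37 that did not pass (adjusted p = 0.0542 in limma).

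Of 37 other enzymes of drug metabolism, 4 rose and 3 fell. Nqo1, the quinone reductase, was at 11.4, 14.3, 12.8, 13.3 and 16.6 FPKM in control tumors 1 to 5 and at 29.0, 17.9, 33.6, 35.2 and 30.9 FPKM in Villin-WlscKO tumors 1 to 5. The groups did not overlap, and the difference was 1.02 (standard error 0.17, adjusted p = 0.0044 in limma). The aldo-keto reductase Akr1b8 rose by 1.29, the aldehyde dehydrogenase Aldh1b1 by 1.24 and the carbonyl reductase Cbr3 by 0.96. The monooxygenase Fmo5 (-0.76) and the prostaglandin D synthase Hpgds (-1.02), itself a sigma class glutathione transferase, were among those that were lower. Among 16 steroid enzymes only H6pd passed, which makes NADPH for Hsd11b1 in the endoplasmic reticulum, with a difference of 1.30. Among 14 transporters only Slc51b passed, the beta chain of the bile acid and steroid exporter, with a difference of 2.97 (adjusted p = 0.0006 in limma). Slc51b spanned 0.24 to 2.67 FPKM in control and 8.52 to 27.5 FPKM in Villin-WlscKO tumors, and so was higher in every Villin-WlscKO tumor.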

How the data were processed

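Messenger RNA of 10 macrodissected colon tumors was sequenced from stranded libraries. Per the labels, the authors used FastQC for read quality, TopHat2 2.1.1 for mapping (GRCm38.p5) and Cufflinks 2.2.1 with Cuffdiff for quantification, and the deposited values are FPKM per gene name and tumor. The annotation release and the use of strand are not given in the sources used here, and the table holds no counts, so depth and counting error are unknown and precision rests on the spread between 5 tumors per group. Names with identical values, as for loci of several genes, were counted once.

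From the FPKM, log2(FPKM + 1) (pseudocount 1) of all 16757 names with a mean of at least 0.5 FPKM was fitted with limma 3.58.1 in R 4.3.3 (eBayes with a variance trend, no covariate), two-sided, with Benjamini-Hochberg adjustment over all names and a threshold of 0.05. A difference on this scale understates the change of low genes. Single values also had a two-sided exact permutation test (Python 3.11.15, scipy 1.17.1). The fit was tested on simulated data. Replicate numbers are not stated to pair the tumors, so no block was used in the main fit. The correlations of deviations between tumors of the same number were 0.064, -0.087, 0.063, 0.10 and 0.16. They cannot settle whether the tumors were paired. Alternatives changed the pseudocount, scaling, filter, eBayes settings, weights and block, fitted identical rows once, left out each tumor in turn, and left out Villin-WlscKO tumors 2 and 3.

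Named were members past the threshold or without overlap, the 3 highest of each family, those with a tumor at least 10 times the median and 5 FPKM, and fixed P450 lists. Cyp2c55, Gstp2, the Cyp4f16 entry and the other Gst genes were added after their values were seen. The members, lists and rules were chosen with earlier results of these data known. Positions are from GENCODE M21, in which all 76 names were found, and 62 had a RefSeq promoter. The values of 1 listed gene are not reported here.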

Additional observations from a re-analysis of the deposited data

Results flagged for a closer look

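In 50 groups of 5 tumors, one for each named entry and genotype, the most extreme tumor was compared with the rest by Dixon's ratio at its 95% critical value. It stood apart in 4, where about 5% of groups do so by chance. Cyp2d34 was at 15.1 FPKM in control tumor 4 and between 28.1 and 33.0 FPKM in the other control tumors. Cyp2r1 was at 2.06 FPKM in Villin-WlscKO tumor 4 and between 0.796 and 0.972 FPKM in the other Villin-WlscKO tumors. Gsto1 was at 388 FPKM in control tumor 1 and between 219 and 230.5 FPKM in the other control tumors. Gstz1 was at 15.2 FPKM in Villin-WlscKO tumor 2 and between 17.8 and 18.6 FPKM in the other Villin-WlscKO tumors.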

How the results depend on the processing

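Lower calls numbered 2 to 4 under every alternative run. Gstm7 and Cyp2b10 were among them in all 22 and Cyp27a1 in 21, with Cyp4f17 or Cyp2c55 added where there were 4. The 3 higher calls depended on single tumors. Leaving out 1 tumor at a time gave 3 to 9 members past the threshold in limma (5% to 15.5%), against 7.36% to 11.9% of all names. Of these members 0 to 6 were higher, with 0 to 2 Ugt and 1 to 6 Gst entries. There were 0 higher calls without control tumor 1, control tumor 2, Villin-WlscKO tumor 3 or Villin-WlscKO tumor 5, and 1 without control tumor 4, but 6 without Villin-WlscKO tumor 2. The higher calls over all names were 811, 726, 695, 819, 712 and 975 in the same order, against 1026 with all tumors. Without Villin-WlscKO tumors 2 and 3 there were 5 higher, 0 Ugt and 5 Gst calls, where 6.63% of all names passed. Quantile normalization left 1 higher, 4 lower and 1 Gst call, and the same FPKM sum for each tumor gave 4 higher and 3 lower with 2 Ugt calls. Tumor quality weights also gave 2 Ugt calls. The same-sum scaling moved the median difference of all names to 0.10 and the share of calls that were higher from 56.3% to 76.9%, and quantile normalization moved it to 44.3%. The replicate block gave 6 members, Gstm2 in place of Gstm3, and 1627 calls over all names against 1822. The sign turned for 4 entries that had not passed. Cyp2f2 was -0.64 without tumors 2 and 3. Under the same-sum scaling and without tumors 2 and 3, respectively, Cyp2s1 was 0.079 and 0.030, Gstm5 0.00021 and 0.20, and Ugt2b34 0.094 and 0.29. With 1 tumor left out, Cyp2s1 ranged from -0.29 to 0.26, Gstm5 from -0.23 to 0.067 and Ugt2b34 from -0.094 to 0.11. The cause of these shifts was not tested.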
